A study of Mus musculus with 4 samples.

Results

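Interferon-stimulated genes were followed here as a set of 39 named genes, chosen for their roles in the interferon response, of which 37 were measured on the arrays under their own gene symbol. They were read through 60 probe sets out of 45037, and through 37 of the 18193 genes with a symbol of their own. Isg15 was represented only by a probe set shared with another gene, and no probe set carried the symbol Ifi44, so no signal is given for either, and both enter only the promoter description. The cells were immortalised mouse embryonic fibroblasts (MEFs) in which both copies of PA1 were flanked by loxP sites. Cells that had received an empty retroviral vector served as PA1 +/+ (wild type, 2 arrays), and cells that had received a retrovirus with Cre recombinase, the enzyme that removes DNA between loxP sites, served as PA1 -/- (knockout, 2 arrays). Both were grown in serum-containing medium and selected with puromycin, and the labels name no interferon treatment and no animal age. They number the arrays of each genotype 1 and 2 without saying what shares a number or whether cultures were separate. Each p-value thus reflects the spread among these 4 arrays alone, pooled in part over probe sets, and that spread may be technical.

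Interferons are cytokines that cells release on sensing viral nucleic acid. Type I interferons act through the receptor chains IFNAR1 and IFNAR2 and the kinases JAK1 and TYK2 to activate a transcription factor complex with STAT2 and IRF9, which binds the interferon-stimulated response element. Interferon gamma acts through a receptor of its own and gamma-activated sites in DNA, and its target genes include those of antigen processing and of GTPases that act on intracellular pathogens. Fibroblasts both produce type I interferon and respond to it, and many of these genes also have a basal level without infection. PA1, read here as Pagr1a, belongs to the protein complexes built around the histone methyltransferases KMT2C and KMT2D, and the study asked which genes depend on it.

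Each array gave linear MAS5 signals, a summary of probe brightness per probe set, with array medians between 63.2 and 66.4. Differences are given as log2(signal + 9.96), so those of dim genes are understated. The targeted gene was low in the knockout arrays: the brightest Pagr1a probe set read 1340 and 1389 in wild type and 107.6 and 113 in knockout, a log2 difference of -3.51 (SE 0.194; limma adjusted p = 1.9e-05, or 0.876 without the replicate number in the fit). The 9 fibroblast markers fixed for this work were all bright enough to test. Their summed signals were 88904 to 109339 in wild type and 79303 to 89061 in knockout. Vim, Fn1 and Col1a2 made up most of these sums, while Thy1 read only 94.6 to 280. Pdgfra, the only fibroblast marker that passed, read 1515 and 357 in wild type and 134 and 210 in knockout. Whether the fibroblast populations had the same makeup was not tested. Of 9 leukocyte markers, 3 were bright enough to test, namely Cd14 (418 to 1416), Cd68 (133 to 224) and Csf1r (91.3 and 94.9 in wild type, 147 and 175 in knockout), and 0 of these passed. The defining genes Ptprc, Itgam and Adgre1 read between 1.68 and 70.5. The summed signals of all 9 were 913 to 1797 in wild type and 930 to 974 in knockout. Arrays of the same number were more alike (r = 0.971 and 0.977 over tested probe sets) than arrays of the same genotype (0.918 and 0.920) (genotypes were compared within numbers, as the definition of the set asks).

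Promoter windows from 250 bases before to 50 bases after an annotated start were taken from RefSeq on GRCm38.p6, and 31 of the 39 genes had at least 1. The core of the interferon-stimulated response element, searched as GAAA, any 2 bases and GAAA on both strands (TTTC, any 2 bases and TTTC on the other), stood in 16 of 35 member windows (45.7%), against 3.44% of all 32851 windows. The core of the gamma-activated site, TTC, any 3 bases and GAA, which reads the same on both strands, stood in 8 of the 35 (22.9%), against 8.3% of all windows. Matches of both motifs can overlap, and a match is a stretch of letters, not evidence of binding. Stretches from 160 bases before the start, up to the start or, for Ifitm3, to base 30 of the transcript, are shown for the 3 members that were at least 1.5-fold lower in the knockout at both numbers (Ifitm3, Irgm1 and Igtp) and for the pair that differed most between the numbers (Ifit1 and Psmb8), in the direction of transcription, with motif matches in capitals.
Ifitm3, chr7:141010715-141010904, minus strand: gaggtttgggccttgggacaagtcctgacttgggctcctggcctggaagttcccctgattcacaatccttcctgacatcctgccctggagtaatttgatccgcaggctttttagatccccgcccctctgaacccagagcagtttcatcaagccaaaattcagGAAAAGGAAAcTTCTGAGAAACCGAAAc
Irgm1, chr11:48871421-48871580, minus strand: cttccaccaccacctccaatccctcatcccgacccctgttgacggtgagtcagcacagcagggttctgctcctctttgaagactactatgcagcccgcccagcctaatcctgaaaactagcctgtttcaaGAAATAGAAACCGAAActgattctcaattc
Igtp, chr11:58199396-58199555, plus strand: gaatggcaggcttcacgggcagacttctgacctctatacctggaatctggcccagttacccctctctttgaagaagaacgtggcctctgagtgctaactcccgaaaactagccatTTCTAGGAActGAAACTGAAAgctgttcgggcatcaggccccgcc
Ifit1, chr19:34640729-34640888, plus strand: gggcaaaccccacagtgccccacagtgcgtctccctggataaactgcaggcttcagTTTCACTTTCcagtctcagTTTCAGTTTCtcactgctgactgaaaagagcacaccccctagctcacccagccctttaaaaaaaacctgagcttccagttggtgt
Psmb8, chr17:34198035-34198194, plus strand: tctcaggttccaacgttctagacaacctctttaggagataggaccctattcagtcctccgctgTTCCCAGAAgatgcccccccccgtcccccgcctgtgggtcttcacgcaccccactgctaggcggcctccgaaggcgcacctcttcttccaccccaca
In Irgm1 the matches began 30 and 24 bases before the start and overlapped, and in Igtp a match began 34 bases before it. In Ifit1 both lay further upstream, beginning at 104 and 85 bases before the start. In Ifitm3 they began at bases 3 and 20 of the annotated transcript, with a gamma-activated site core between and overlapping the second. The Psmb8 window held only a gamma-activated site core, beginning 97 bases before the start.

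**Figure D1:**
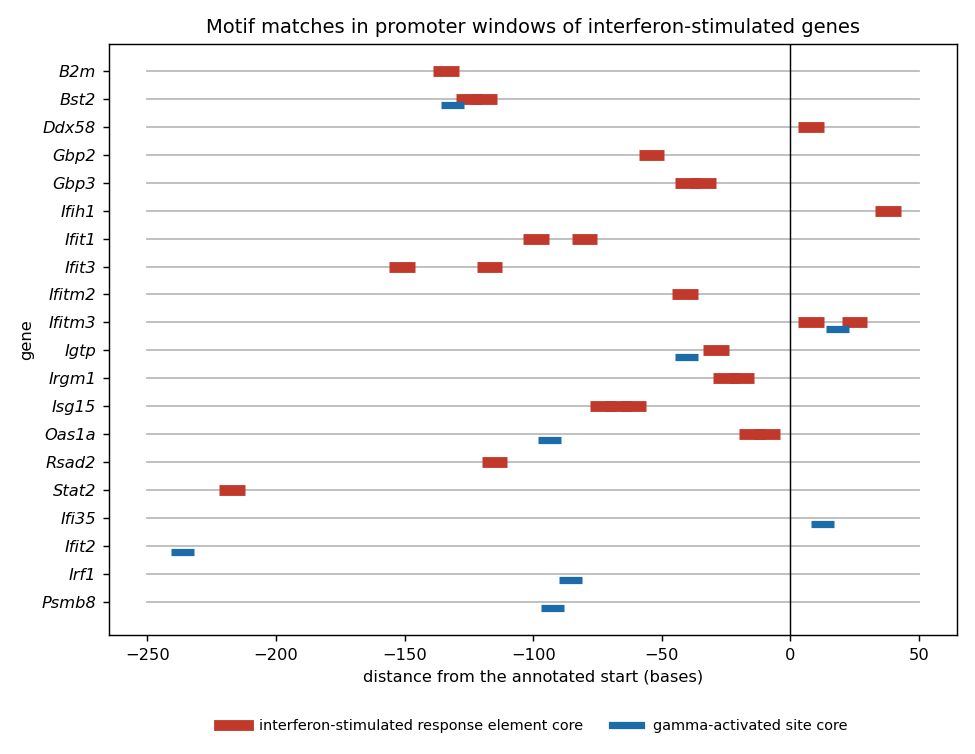
Positions of the motif matches along each member's promoter window, in bases from the annotated start (x axis), for the 20 genes with a match of either motif (y axis). Red bars are interferon-stimulated response element cores (16 genes) and blue bars gamma-activated site cores (8 genes).

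Of the 37 measured members, 27 were bright enough to test, and 2 of these were called lower in the knockout. They were Ifitm3, a membrane protein that blocks virus entry, and Irgm1, a GTPase of cell-autonomous immunity. No tested member was called higher. The calls come from limma with the replicate number as a term (adjusted p under 0.05), which called 1.82% of all 10714 tested genes lower and 0.663% higher, so 2 of 27 (7.41%) stands beside 1.82%. At an unadjusted p under 0.05 there were 8 lower members and 1 higher, beside 8.86% and 8.22% of all genes. Without the replicate number in the fit, 0 members and 0% of all genes passed in limma (2 members, Irgm1 and Ifitm3, and 231 genes at an unadjusted p under 0.05). The smallest p that an exact 2-sided permutation of these 4 arrays allows is 0.333.

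Most tested members had a lower signal in the knockout at number 1, and their median difference was smaller at number 2. The median log2 difference over the 27 was -0.50 at number 1 and -0.10 at number 2, where all tested genes had 0.04 and -0.00028. At number 1, 12 members were lower by 1.5-fold or more and 0 higher by that much, beside 6.98% and 7.77% of all genes. At number 2, 4 were lower and 2 higher by that much, beside 6.45% and 5.11%. Ifitm3, Irgm1 and Igtp were lower by 1.5-fold or more at both numbers, 3 of 27 (11.1%) beside 2.55% of all genes, and 0 were higher by that much at both (1.46%). With quantile normalization, median centring or a pseudocount at the median signal, only Ifitm3 and Irgm1 were lower by that much at both. Directions matched at the numbers for 20 members, 15 lower at both (29.3% of all genes) and 5 higher at both (33.9%), and 7 went opposite ways (36.8%). Those were Ifit1, Irf7, Irf9, Oas1a, Rsad2, Psmb9 and B2m. The directions of B2m and Tapbp, both close to 0, flipped under other scalings. Whether the genotype difference itself differed between numbers could not be tested with 1 array per genotype and number. 

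With no filter, over all 37 measured members, 16 were lower by 1.5-fold or more at number 1 (10.9% of all 18193 genes) and 1, Oas2, was higher by that much (12.2%). At number 2 the counts were 5 lower (11.3%) and 2 higher (9.82%). Of the 37, 21 were lower at both numbers (27.4%), 6 higher at both (31.1%) and 10 went opposite ways (41.5%). The same 3 members were lower by 1.5-fold or more at both numbers (3.14%), and 0 were higher by that much at both (2.5%). Adding the dim members thus left the share lower at both numbers at 56.8%, against 55.6% among those tested.

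**Figure D2:**
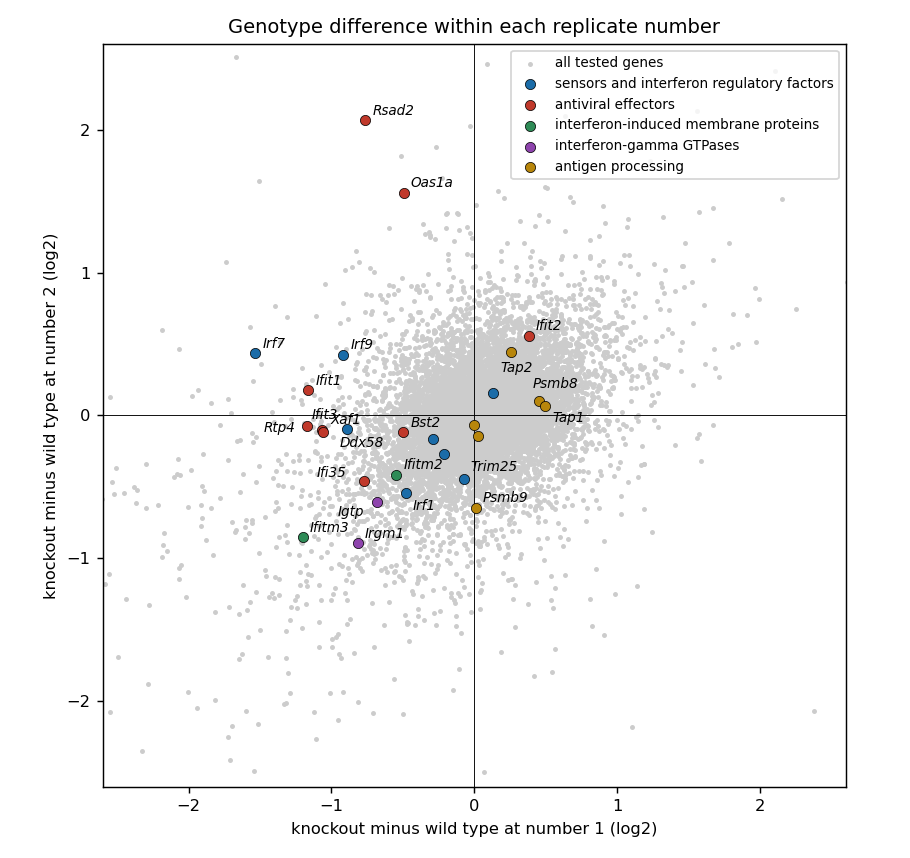
Knockout minus wild-type log2 difference at number 1 (x axis) and number 2 (y axis) for the 27 tested members, coloured by role, over all tested genes in grey, of which 34 lie outside the axes. Irgm1, Ifitm3 and Igtp lie at the lower left, while Rsad2 and Oas1a are below 0 at number 1 and well above 0 at number 2.

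Ifitm2 and Ifitm3, genes of interferon-induced transmembrane proteins, were among the brightest members. IFITM proteins sit in cell membranes and hinder fusion of enveloped viruses. Ifitm3 read 8714 and 12894 in the wild-type arrays numbered 1 and 2, and 3784 and 7126 in the knockout arrays. Both knockout arrays lay below both wild-type arrays. Its log2 difference was -1.03 (SE 0.127; -1.20 at number 1 and -0.85 at number 2), a 2.04-fold fall that passed limma (adjusted p = 0.00209; range over 15 alternatives 0.00012 to 0.99997). The call was lost without the replicate number in the fit (adjusted p = 0.9998), with every probe set tested (0.145) and without an intensity trend in the variance model (0.0994). Ifitm2 read 7857 and 11820 in wild type and 5379 and 8856 in knockout, so the knockout was lower at each number but the genotypes overlapped. Its difference was -0.48 (SE 0.114) and did not pass (adjusted p = 0.0587). Ifitm1 was too dim to test, at 60.6 and 79.9 in wild type and 44.4 and 51.1 in knockout. These genes are close paralogues, and whether their probe sets cross-hybridise was not tested.

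The GTPases that interferon gamma induces were represented by Irgm1 and Igtp among the tested members. Irgm1, a regulator of the immunity-related GTPases, read 1631 and 1808 in wild type and 922 and 967 in knockout. The genotypes did not overlap, and the arrays of a genotype lay close together. The log2 difference was -0.86 (SE 0.172; -0.82 at number 1 and -0.90 at number 2; adjusted p = 0.0285, range over 15 alternatives 0.009 to 0.99997). This call was lost with quantile normalization (adjusted p = 0.0517), median centring (0.071), a pseudocount at the median signal (0.0587), no filter (0.168), no intensity trend (0.129) and no replicate number in the fit (0.9998). Igtp, an effector GTPase of the same family, read 572 and 169 in wild type and 353 and 107 in knockout. It was lower in the knockout at each number by a similar amount (-0.68 and -0.61), although number 2 was dim in both genotypes. The mean difference, -0.64 (SE 0.207), did not pass (adjusted p = 0.147). Gbp2, Gbp3 and Iigp1 were too dim to test. Gbp2, a guanylate-binding protein, read 203 and 58.4 in wild type and knockout at number 1, and 29.3 and 20.9 at number 2.

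Among the antiviral effectors, 9 of 15 measured genes were tested and 0 passed limma. The numbers gave different pictures for several of them. Ifit1, which binds viral RNA that lacks host cap methylation, read 1355 in wild type and 600 in knockout at number 1, and 37.1 and 43.3 at number 2. The knockout was thus lower only where the gene was bright, with differences of -1.16 and 0.18. Rtp4 (819 and 359, then 225 and 213), the pro-apoptotic gene Xaf1 (503 and 237, then 84.5 and 77.4) and Ifit3 (287 and 132, then 97.3 and 89.8) had the same shape. Their differences at number 1 were -1.17, -1.06 and -1.07, and at number 2 they were -0.08, -0.11 and -0.10. None of them passed (adjusted p between 0.252 and 0.43 for these 4 genes).

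Rsad2, which encodes the antiviral enzyme viperin, and Oas1a, which makes the second messenger that activates RNase L, had opposite directions at the numbers. Rsad2 read 248 in wild type and 142 in knockout at number 1, and 4.94 and 52.6 at number 2. Oas1a read 196 and 136, then 15.7 and 65.6. The difference of Rsad2 was -0.76 at number 1 and 2.07 at number 2, and that of Oas1a was -0.49 and 1.56. At number 2 these rest on wild-type signals near the pseudocount, and other Rsad2 probe sets at number 2 read 26.7 and 18.1, and 4.8 and 21.9, in wild type and knockout. Neither gene passed (adjusted p = 0.554 and 0.549).

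Other effectors differed in the same direction at both numbers. Ifi35, an interferon-induced leucine zipper protein gene, read 3038 and 1853 in wild type and 1773 and 1347 in knockout, with no overlap. Its difference was -0.62 (SE 0.167; adjusted p = 0.0911), and its other tested probe sets were also lower in the knockout at each number. Bst2, which encodes tetherin, a protein that holds budding virions at the cell surface, read 986 and 585 in wild type and 697 and 539 in knockout (-0.31; adjusted p = 0.46). Ifit2 alone among the tested effectors was higher in the knockout at both numbers, at 324 and 395 in wild type against 425 and 586 in knockout. It was also the only tested member with both knockout arrays above both wild-type arrays, which 15% of all genes showed, and it did not pass (0.47, SE 0.195; adjusted p = 0.259). The reverse, both knockout arrays below both wild-type arrays, held for Ifi35, Ifitm3, Irf1, Irgm1 and Stat2, 5 of 27 (18.5%) beside 11.3% of all genes.

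**Figure D3:**
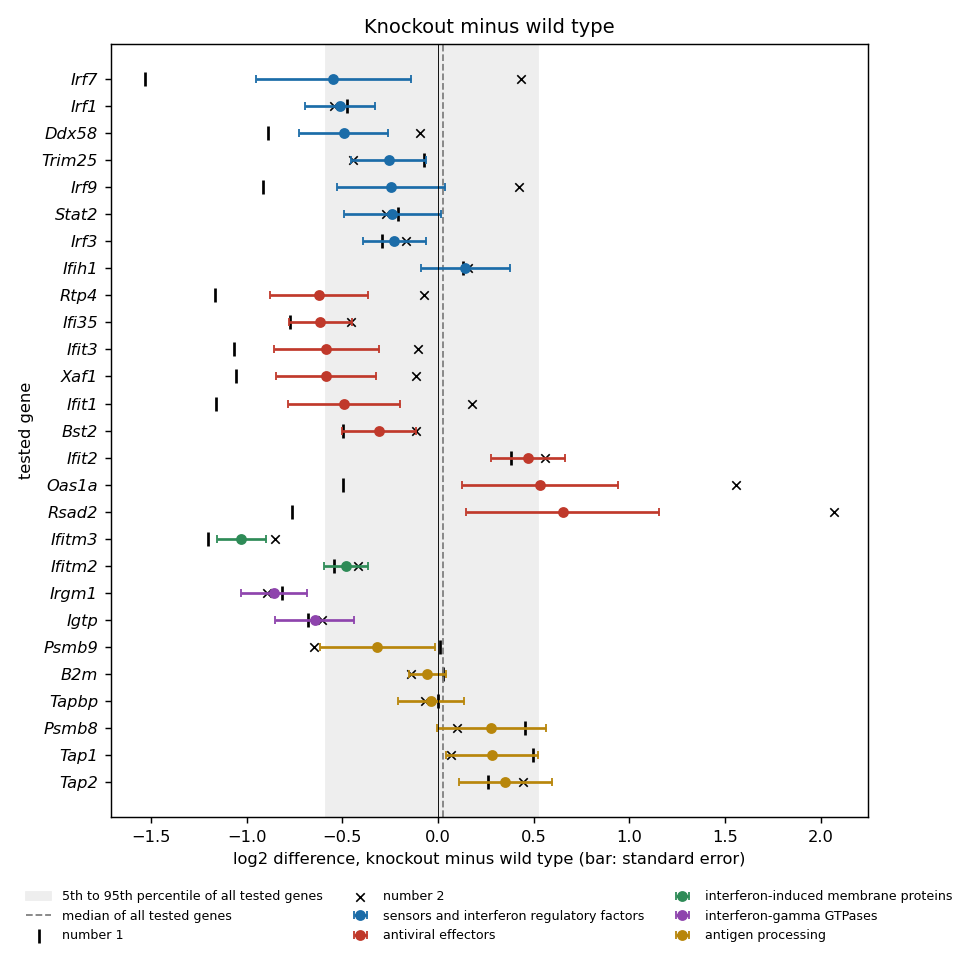
Knockout minus wild-type log2 difference of each tested member (x axis; coloured point and standard error), with the difference at number 1 (bar mark) and number 2 (cross), grouped by role. The grey band spans the 5th to 95th percentile of all tested genes, -0.58 to 0.52, with Ifitm3, Irgm1, Igtp, Rtp4 and Ifi35 below it and Rsad2 and Oas1a above it.

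The sensors and regulatory factors were all bright enough to test, and 0 of 8 passed limma. Ddx58, which encodes the viral RNA sensor RIG-I, read 585 and 219 in wild type and 311 and 204 in knockout, again lower mainly at number 1 (-0.89 and -0.09; adjusted p = 0.322). Ifih1, which encodes the related sensor MDA5, read 522 and 29.0 in wild type and 572 and 33.6 in knockout. Its genotypes were within 0.16 of each other at each number, while the numbers differed 13.5-fold. Trim25, the ubiquitin ligase that acts on RIG-I, read 1128 and 349 in wild type and 1071 and 254 in knockout (-0.26; adjusted p = 0.545), and another of its probe sets gave 0.10.

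Irf1, a transcription factor that interferon gamma induces, read 975 and 863 in wild type and 697 and 588 in knockout. The knockout was lower by a like amount at each number (-0.48 and -0.55), without overlap, but the difference of -0.51 (SE 0.183) did not pass (adjusted p = 0.188). Irf3, which is activated downstream of the sensors, read 1462 and 2349 in wild type and 1192 and 2091 in knockout (-0.23; 95% interval -0.59 to 0.13). Its other tested probe sets gave 0.07 and 0.16, so the direction depends on the probe set. Irf7, which amplifies the type I response, read 133 and 53.8 in wild type and 39.5 and 76.2 in knockout, with differences of -1.53 and 0.44.

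Of the components of the type I interferon-activated complex, Irf9 and Stat2 are members. Irf9 read 412 and 246 in wild type and 214 and 334 in knockout, lower at number 1 and higher at number 2 (-0.92 and 0.43; adjusted p = 0.708). Stat2 read 109 and 112 in wild type and 92.5 and 91.6 in knockout. It was lower by a small amount at each number (-0.21 and -0.27) and did not pass (-0.24, 95% interval -0.79 to 0.31).

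Of the antigen processing genes 0 of 6 passed limma, with 3 higher in the knockout at both numbers, 1 lower at both and 2 opposite. Tap1 and Tap2, which form the peptide transporter of the endoplasmic reticulum, differed by 0.28 and 0.35 (adjusted p = 0.602 and 0.505). Tap1 read 158 and 98.3 in wild type and 228 and 103 in knockout, and Tap2 read 216 and 48.2 against 260 and 69.1. Psmb8, an immunoproteasome subunit, read 335 in wild type and 463 in knockout at number 1, and 4.87 and 5.93 at number 2. Its partner subunit Psmb9 read 93.6 and 94.4, then 58.1 and 33.5. Tapbp, which encodes the peptide-loading factor tapasin, read 1766 and 902 in wild type and 1764 and 859 in knockout (-0.04, 95% interval -0.41 to 0.34). Another tested Tapbp probe set went opposite ways at the numbers (0.10 and -0.66). B2m, the invariant light chain of MHC class I, was the brightest member at 13262 and 17757 in wild type and 13520 and 16093 in knockout. Its difference was -0.06 with a 95% interval of -0.27 to 0.16, which rests in part on the spread of other probe sets. A 1.5-fold change lay outside that interval.

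**Figure D4:**
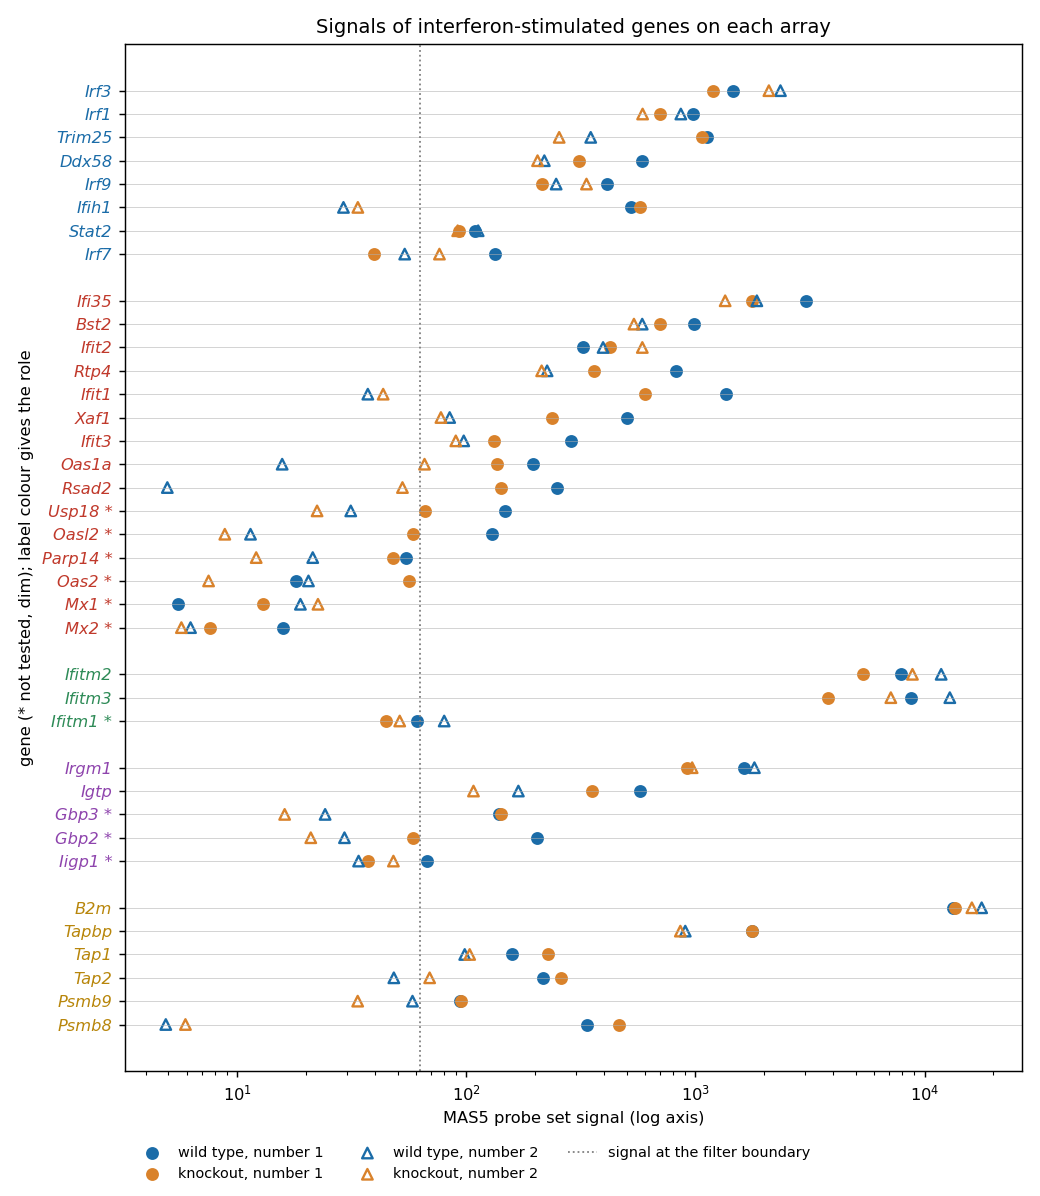
MAS5 signal (x axis, log scale) of the brightest probe set of each of the 37 measured members on the 4 arrays, grouped by role. Filled circles are number 1 and open triangles number 2, blue is wild type and orange knockout, and starred genes were not tested; for Psmb8, Ifih1 and Ifit1 the arrays separate by number rather than by genotype.

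The 10 members that were too dim to test read between 5.5 and 203. They were Oasl2, Oas2, Mx1, Mx2, Usp18, Parp14, Gbp2, Gbp3, Iigp1 and Ifitm1. Of these, 8 had their highest signal on an array numbered 1, and the share of all dim genes that did so was not counted. Usp18, the protease that removes ISG15 and limits interferon signalling, read 147 in wild type and 66.2 in knockout at number 1, and 31.2 and 22.3 at number 2. Oasl2 read 129 and 58.4, then 11.4 and 8.81. The dynamin-like antiviral genes Mx1 and Mx2 read at most 22.5 on any array.

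Levels of many members differed between the replicate numbers, which the definition of the set takes as given, so these differences are described with no test. Both number 2 arrays lay below both number 1 arrays for 16 of the 27 tested members and above them for 3 (B2m, Ifitm2 and Irf3), beside 31% and 29.8% of all tested genes. With no filter, which keeps genes that are bright at 1 number only, the counts were 22 of 37 below and 4 above, beside 27.1% and 25%. The median difference, number 2 minus number 1, was -0.93 over tested members and -0.0099 over all tested genes.

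Psmb8, Ifit1, Ifih1 and Rsad2 were lower at number 2 by 4-fold or more on the log2(signal + 9.96) scale, and 0 tested members were higher by that much, beside 2.23% and 1.16% of all genes. Their mean signals at number 2 (5.4, 40.2, 31.3 and 28.7) lay under the filter's boundary near 62.8, so they were tested only through number 1. With no filter, Gbp3 and Oasl2 joined them, 6 of 37 beside 1.96% of all genes, and 0 were higher by that much (0.781%). The number 2 means of Oas1a (40.6), Tap2 (58.6) and Psmb9 (45.8) also lay under that boundary, so the same limit holds for these genes. Their differences were -1.98, -1.86 and -0.93. Among tested members whose number 2 means stayed above the boundary, Xaf1, Trim25, Igtp and Rtp4 differed most, by -1.97, -1.85, -1.67 and -1.27. The tested members with higher means at number 2 were Irf3 (0.74), Ifitm3 (0.74), Ifitm2 (0.65), Ifit2 (0.37), B2m (0.34), Irgm1 (0.11) and Stat2 (0.02). That of Stat2 turned negative with quantile normalization (-0.005) and cyclic loess (-0.06).

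Some cell type markers differed between the numbers too, as did many other genes. Over all tested genes, both number 2 arrays lay below both number 1 arrays for 31% and above them for 29.8%. Krt18, an epithelial keratin gene, read 298 and 266 at number 1 and 11.4 and 27.6 at number 2, in wild type and knockout. Of the 6 epithelial markers, 2 had both number 2 arrays below number 1 and 2 above. The latter were Krt5 (41.4 and 39.0, then 69.6 and 50.8) and Epcam (145 and 112, then 163 and 190). Cd34, found on endothelial and progenitor cells, read 2518 and 2462, then 689 and 345, and its level made up most of the summed endothelial markers. Of the 9 fibroblast markers, 2 had both number 2 arrays below number 1 and 4 above, beside the 31% and 29.8% of all tested genes. Col1a1 read 11898 and 11395, then 6488 and 4037, and S100a4 read 8567 and 4666, then 19954 and 18145. The summed endothelial markers ran from 492 to 2649 and the epithelial ones from 307 to 706 over the 4 arrays, while the endothelial genes Pecam1 and Cdh5 read at most 41.9. The part of these differences in the members' levels was not tested.

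Tested members with a response element core in their promoter window had a median number 2 minus number 1 difference of -0.98 (13 genes), and those whose windows lacked it had -0.70 (12 genes). For the gamma-activated site core the order was the reverse, at -0.55 with it (8 genes) and -0.93 without (17 genes). The median genotype differences were -0.48 and -0.25 for the response element, and -0.41 and -0.26 for the gamma-activated site, all given as a description with no test.

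**Figure D5:**
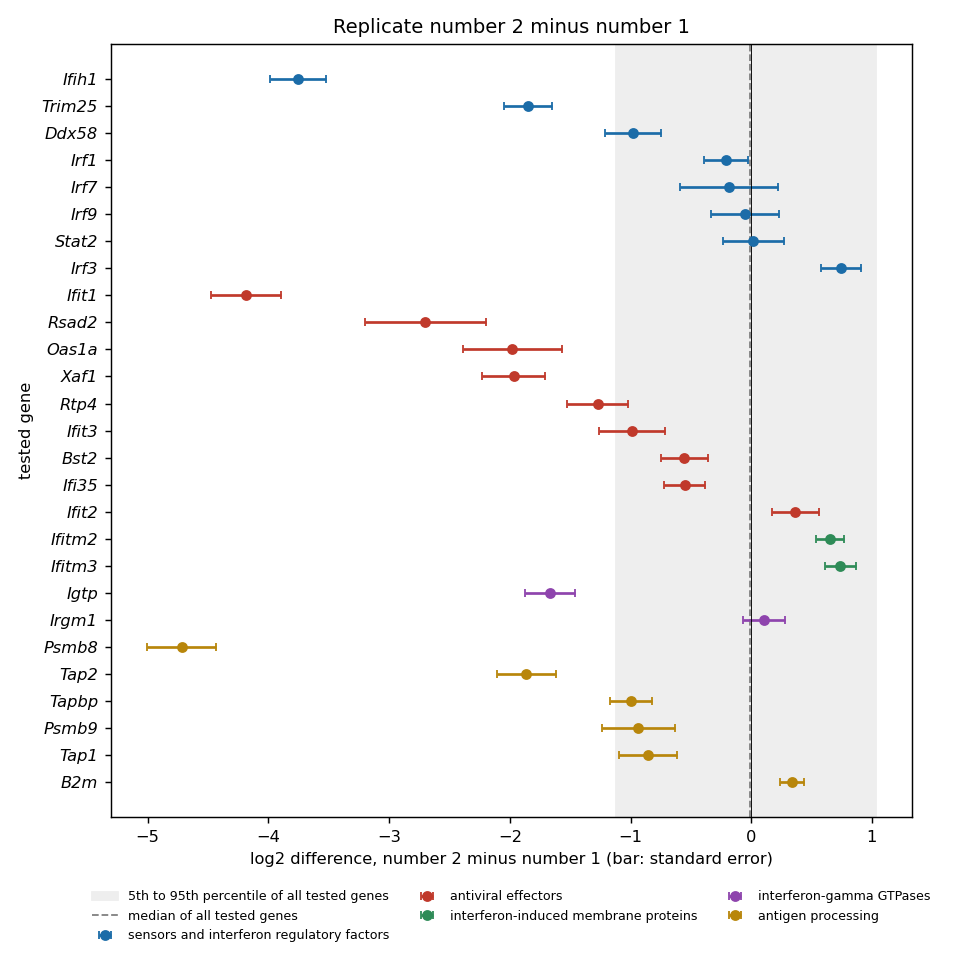
Log2 difference between replicate number 2 and number 1, averaged over the genotypes (x axis), with its standard error, for each tested member grouped by role. The grey band spans the 5th to 95th percentile of all tested genes, -1.12 to 1.03; Psmb8, Ifit1 and Ifih1 lie furthest to the left and no member lies to the right of the band.

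Of 91 other genes of the interferon pathway, 77 were measured and 51 tested, of which 2 fell and 0 rose in limma with the replicate number as a term (4 lower and 1 higher at an unadjusted p under 0.05), beside the 1.82% and 0.663% of all genes given above. Socs3, a feedback inhibitor of JAK and STAT signalling, read 744 and 621 in wild type and 324 and 266 in knockout. The genotypes did not overlap, and the difference was -1.18 (SE 0.192; adjusted p = 0.0095). Ifi47, another GTPase of the Irgm1 and Igtp family, read 326 and 96.9 in wild type and 139 and 37.8 in knockout. As for Igtp, the difference was alike at the numbers (-1.18 and -1.16; adjusted p = 0.0337) although levels were lower at number 2. Neither passed without the replicate number in the fit, without the filter or without the intensity trend. Ifi47 was also not called with quantile normalization, median centring, a pseudocount at the median signal or averaged probe sets. With only the brightest 30% it was too dim to be tested. The median over the 51 was 0.03. Of the interferon receptor chains, Ifnar1, Ifngr1 and Ifngr2 differed by 0.01, 0.07 and 0.20, and Ifnar2 by -0.58 (adjusted p = 0.118). The interferon genes Ifnb1, Ifna1, Ifna2, Ifna4 and Ifng were all too dim to test, between 1.62 and 66.2 on every array.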

How the data were processed

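Biotin-labelled total RNA of 4 samples was read on 1 Affymetrix array each, per the labels. Intensity values as deposited are linear probe set signals made by the authors with MAS5, per the submitters' processing notes. Version and settings of that program were not given in the sources used here. Without the lowest and highest 2% of probe sets, each array's mean was 498, so a change shared by most genes may have been scaled out. No detection calls were used. All 4 value columns were used, and 64 control probe sets were left out.

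Genes were named from the platform annotation (1 symbol for 34945 probe sets, several for 932, none for 9160), and probe sets with several symbols named no gene. Members were matched by symbol. The scale was log2(signal + 9.96), the pseudocount being the 20th percentile of the signals. The upper 50% of probe sets by mean over all arrays (22519, boundary near a signal of 62.8) were tested with limma 3.58.1 in R 4.3.3 (lmFit, eBayes with an intensity trend, 2-sided), with genotype and replicate number as terms, 1 residual degree of freedom, and p-values adjusted by Benjamini-Hochberg over every probe set tested. Genes were read through their brightest tested probe set (10714). The replicate number was a term because the definition of the set asks for comparisons within numbers. The number 2 minus number 1 differences of wild type and knockout correlated at 0.805 over tested probe sets, but the labels name nothing that same-numbered arrays share. The members, the other gene lists, the motifs and this choice were made with earlier results of these data known. Members given in detail were those called, those at least 1.5-fold different the same way at both numbers or opposite with at least 1 difference of that size (up to 4 per role), and Irf3, Irf9, Stat2 and B2m. The other members are named because they belong to the set. The fit was tested on simulated data. Alternatives were the fit without the replicate number, 3 normalizations, 2 pseudocounts, 2 filters, 2 variance models, averaging the probe sets of a gene, and leaving out arrays. Plots used Python 3.11.15 and matplotlib 3.10.9.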

Additional observations from a re-analysis of the deposited data

How the results depend on the processing

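Without the replicate block, that is with genotype as the only term, 0 genes and 0 members passed, against 266 and 2 with it. The count of genes called was 125 with quantile normalization, 141 with median centring, 130 with a pseudocount at the median signal, 5 without the filter, 36 without an intensity trend and 115 with the probe sets of a gene averaged. The members called were then 1 (Ifitm3) under the first 3 of these settings and 0 without the filter or the trend, where 7 members each had an unadjusted p under 0.05 (12.7% and 14% of all genes). Cyclic loess, a pseudocount of 1, robust eBayes and the mean of probe sets called 2 members, and the brightest 30% called 3. With quantile normalization 23 of the 125 genes called were higher and with the brightest 30% 130 of 336, against 71 of 266. Causes of these shifts were not tested. The median difference of members, -0.31, lay between -0.22 and -0.48 under the settings with all 4 arrays. B2m turned positive with quantile normalization (0.069) and cyclic loess (0.020).

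Leaving out an array with the replicate block leaves the difference within the other number, with no test. Without the block, leaving out an array left 0 genes and 0 members called in each of the 4 fits, and those fits mix the number difference into the genotype difference. Over these settings the median of members ran from -0.78 to 0.20, the latter without the wild-type array numbered 1. Ifit1 ran from -2.92 to 1.94 (positive at 1.94 and 1.27 without the wild-type array numbered 1 and the knockout array numbered 2), Irf3 from -0.63 to 0.17 (0.11 and 0.17), Irf7 from -1.53 to 0.44 (0.04), Irf9 from -0.92 to 0.43 (0.11 and 0.07), Oas1a from -0.97 to 2.03, Rsad2 from -1.41 to 2.71, Igtp from -1.50 to 0.21 (0.17 and 0.21), Psmb9 from -0.95 to 0.31 and B2m from -0.27 to 0.15. Ifitm3 stayed below 0 in all of them (-1.48 to -0.57), as did Irgm1 (-0.93 to -0.78). With 2 arrays per genotype, dim members such as Rsad2 at number 2 have little precision.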

Other observations

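Among the other genes of the interferon pathway, several that differed between the numbers were chosen here after their values were seen and are described with no test. The chemokine gene Ccl5 read 1789 in wild type and 1795 in knockout at number 1, and 107.2 and 66.0 at number 2 (number 2 minus number 1, -4.26). Cxcl10, a chemokine gene induced by interferon, read 700 and 586, then 20.04 and 46.8 (-3.98). Cgas, which encodes the cytosolic DNA sensor, read 1520 and 1894, then 423 and 327 (-2.16). Nlrc5, a transactivator of MHC class I genes, went the other way, at 86.4 and 107.3 against 273 and 498 (1.83). Of the 51 tested genes of this list, 21 had both number 2 arrays below both number 1 arrays and 11 above, beside 31% and 29.8% of all genes.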
